A study of Homo sapiens with 10 samples.

Results

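The matrix metalloproteinases MMP1, MMP2, MMP3, MMP9 and MMP10, the metalloproteinase inhibitor TIMP3, and the plasminogen activation genes PLAU, PLAT and PLAUR were described here as 1 system of proteolysis at the cell surface. Each gene was represented by the array row that the platform annotation assigns to that gene symbol alone, and by the row with the highest mean where a gene had several. All 9 genes had exactly 1 such row, of 14232 genes represented in this way. Expression was measured in SH-SY5Y cells, an established human neuroblastoma line used as a model of sympathetic neuroblasts. The untreated group had 5 arrays, called controls 7, 11, 13, 17 and 19 after the numbers in their titles, and the group treated with paraquat had 5, called paraquat 8, 12, 14, 18 and 20. Paraquat is a herbicide that accepts electrons inside cells and passes them to oxygen, which forms superoxide. Dose and duration are not stated in the labels. The labels also leave unsaid whether each array had its own culture, so the p-values reflect only the scatter among arrays, possibly technical scatter. Values are log2 expression after RMA, a procedure that corrects background, equalises arrays and combines the several probes of a row into 1 value.

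Matrix metalloproteinases are zinc-dependent enzymes that are secreted or held at the cell surface as inactive proenzymes and cut collagens, proteoglycans and other proteins outside the cell. Tissue inhibitors of metalloproteinases, the TIMPs, bind their active sites. The plasminogen activators PLAU (urokinase) and PLAT (tissue-type activator) cut plasminogen into plasmin, a protease with broad specificity that can in turn activate several prometalloproteinases, and PLAUR holds urokinase at the cell surface. In the nervous system these proteases are known for roles in neurite growth and synaptic plasticity, and in many cell types the collagenase and stromelysin genes are induced through transcription factors of the AP-1 family.

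After paraquat, 5 of the 9 genes rose and 0 fell at an adjusted p under 0.05 in the limma model fitted to all rows of the array. The collagenase MMP1 rose 11.2-fold, the stromelysins MMP3 and MMP10 rose 4.09-fold and 2.93-fold, and the plasminogen activators PLAT and PLAU rose 2.06-fold and 1.99-fold. The gelatinases MMP2 and MMP9, the inhibitor TIMP3 and the urokinase receptor PLAUR did not pass. Of 22011 rows tested, 8.51% were called upward and 11.5% downward, against 55.6% of the 9 genes upward. These shares are of the values as deposited, with 1873 rows called upward and 2524 downward, and the split became 2241 against 2211 once each array was centred on its median. Counted by gene, 1359 of the 14232 genes were called upward and 2025 downward. The shares of rows set beside the gene lists below are thus lower than the shares of genes. At an unadjusted p under 0.05, 6 of the 9 were higher, the sixth being MMP9, and 0 were lower. The median log2 change was 0.99 over the 9 genes and 0.0047 over all rows. The 9 genes were chosen with earlier results of these data known, so their contrast with all rows is a description and no independent evidence. Every paraquat array exceeded every control for 5 of the 9 genes, the same 5 that rose, and for 7.01% of all rows. The calls and this separation rest on the same values, so the separation is no further support. Levels of different genes are not compared with each other because each row has its own probes.

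**Figure D1:**
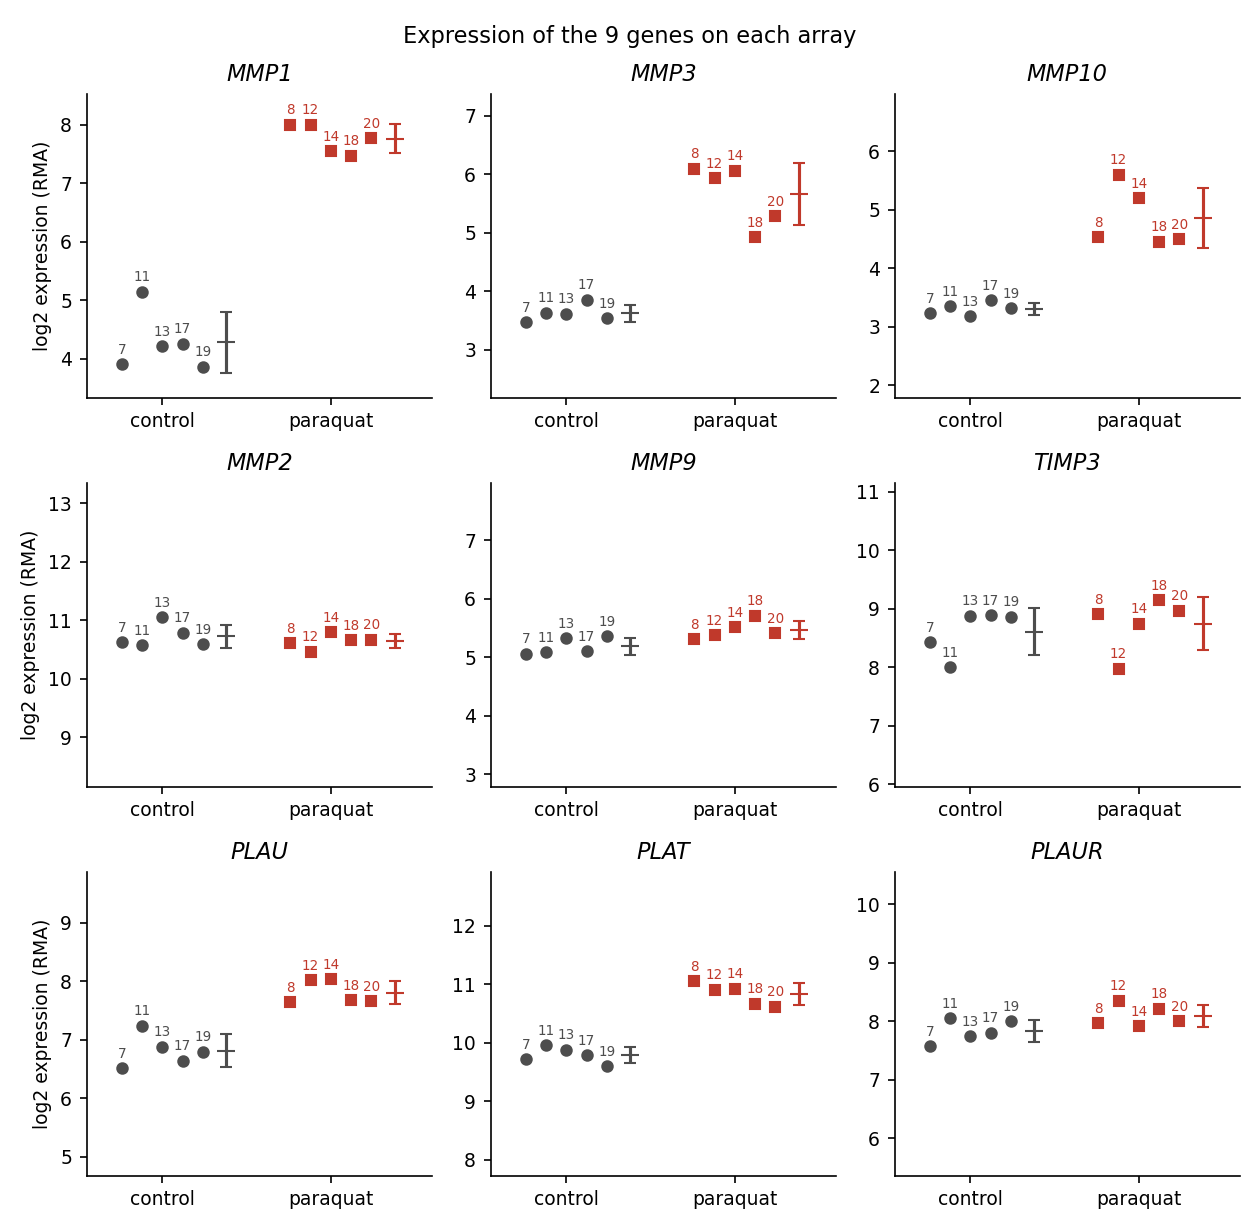
Log2 expression of the 9 genes on each array, with controls as grey circles and paraquat as red squares, each labelled with its array number; bars at the side give the mean and SD of 5 arrays. Every panel spans the same number of log2 units, and the groups are apart for MMP1, MMP3, MMP10, PLAU and PLAT but overlap for MMP2, MMP9, TIMP3 and PLAUR.

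MMP1, the interstitial collagenase that opens the triple helix of fibrillar collagens (transcript cluster 3388807), had the largest change. Its level was 3.90, 5.15, 4.22, 4.25 and 3.86 on controls 7, 11, 13, 17 and 19, and 8.00, 8.00, 7.54, 7.47 and 7.77 on paraquat 8, 12, 14, 18 and 20. The lowest paraquat array stood 2.33 above the highest control, which was control 11. The log2 change was 3.48 ± 0.23 (SE, n = 5 arrays each, limma adjusted p = 2.64e-06), with a 95% interval of 2.98 to 3.98. By size of increase MMP1 ranked 12 among all rows. Its mean moved from 4.28 ± 0.52 to 7.76 ± 0.25 (SD), from beside the dimmest of 5 equal groups of rows, which ends at a mean of 4.18, to above the median of every array, which lay between 6.78 and 6.93.

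MMP3, or stromelysin 1, which cuts proteoglycans, fibronectin and basement membrane proteins and can activate other prometalloproteinases (transcript cluster 3388830), was dim on all controls. Its control level was 3.47, 3.63, 3.62, 3.86 and 3.54, in the order of the array numbers, and its paraquat level was 6.09, 5.93, 6.06, 4.92 and 5.28. Paraquat 18 and 20 lay below the other 3 treated arrays, yet all 5 stood above every control. The log2 change was 2.03 ± 0.22 (adjusted p = 7.96e-05).

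MMP10, or stromelysin 2, a close relative of MMP3 (transcript cluster 3388785), gave 3.23, 3.35, 3.18, 3.46 and 3.32 on the controls and 4.54, 5.60, 5.21, 4.46 and 4.50 on the paraquat arrays. Here paraquat 12 and 14 were the high arrays, and paraquat 8, which was the highest array for MMP3, lay with 18 and 20. The log2 change was 1.55 ± 0.21 (adjusted p = 0.000403). The control means of MMP3 (3.62) and MMP10 (3.31) are both in the dimmest of 5 equal groups of rows, where a transcript cannot be told from background here, so the sizes of both increases are uncertain and may be understated.

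On the deposited log2 scale the measured change of MMP1 exceeded that of MMP10 by 1.93 (two-sided exact permutation test, p = 0.00794, which is the minimum for 10 arrays in equal groups; adjusted p = 0.0238 over the 6 pairs of genes compared) and that of MMP3 by 1.45 (exact adjusted p = 0.0317). With 1 array left out the smallest p is 0.0159, and the call for MMP1 against MMP3 then ended without control 7 or paraquat 8, 18 or 20 (exact adjusted p = 0.0635), at differences of 1.33 to 1.50. The measured changes of MMP3 and MMP10 differed by 0.48. Because the control values lie at or near the dim end of the array, these are differences between measured values and set no order for the sizes of the 3 increases.

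**Figure D2:**
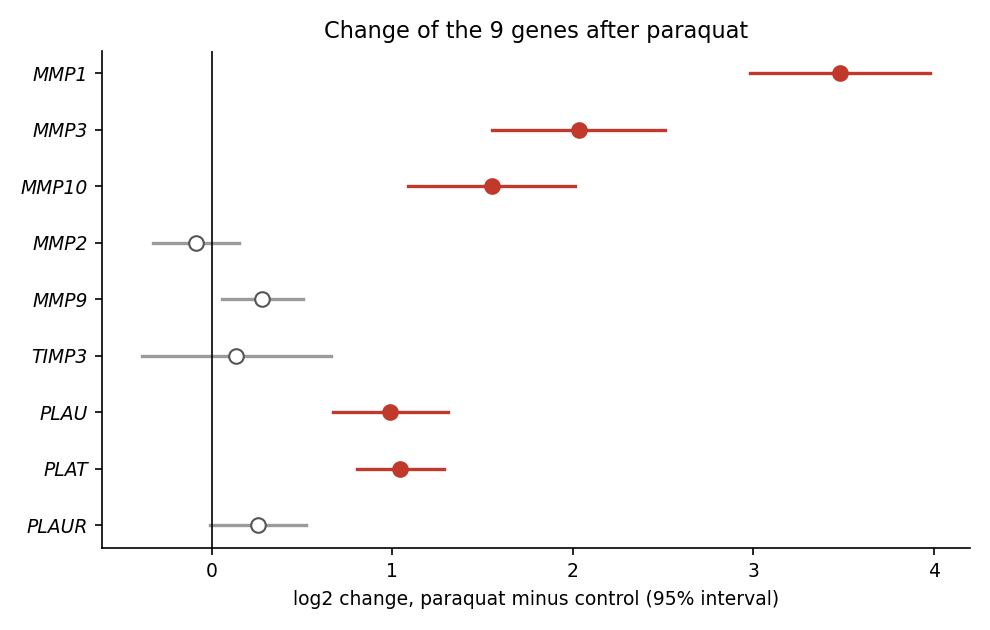
Log2 change of each gene, paraquat minus control, with its 95% interval from the limma model over 5 arrays per group; filled red points passed at an adjusted p under 0.05 and open points did not. MMP1 stands farthest to the right at 3.48, PLAU and PLAT lie side by side at 0.99 and 1.05, and the interval of TIMP3, from -0.39 to 0.66, is the widest of the genes that did not pass.

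MMP10, MMP1 and MMP3 are direct neighbours on chromosome 11, in a run of 9 metalloproteinase genes that reads MMP7, MMP20, MMP27, MMP8, MMP10, MMP1, MMP3, MMP12 and MMP13 in RefSeq. Of the other 6 genes of the run, MMP13, or collagenase 3, was called upward, with a log2 change of 0.50 ± 0.10 (limma adjusted p = 0.00466) between means of 2.86 and 3.36, both in the dimmest of 5 equal groups of rows. The remaining 5 did not pass, with changes of 0.21 for MMP7 (matrilysin), 0.13 for MMP12 (macrophage elastase), 0.07 for MMP27, 0.03 for MMP20 (enamelysin) and -0.05 for MMP8 (neutrophil collagenase). Their means over all arrays lay between 2.36 and 3.31, so that a change of these transcripts below the background could not be seen. The run of genes was drawn together after the values had been seen, and it serves as a description.

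**Figure D3:**
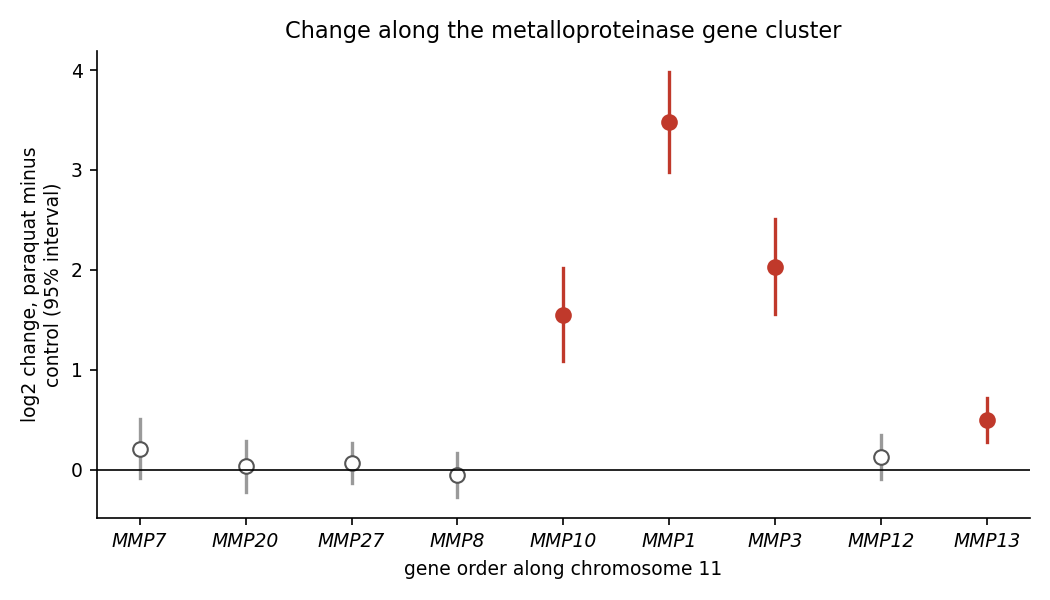
Log2 change, paraquat minus control, of the 9 metalloproteinase genes in their order along chromosome 11 (equal spacing, not to distance), with 95% intervals from the limma model over 5 arrays per group; filled red points passed. The 3 genes in adjacent places, MMP10, MMP1 and MMP3, carry the changes of 1.55, 3.48 and 2.03, and MMP13 at the end has a change of 0.50.

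Promoter sequences were found in the RefSeq table of build GRCh38.p14 for 4 of the 9 genes, MMP10, PLAU, PLAUR and TIMP3. Those of MMP10, which rose, and of PLAUR and TIMP3, which did not pass, are printed as the 250 bases before the transcription start on the strand of the gene, to show how unlike their control regions are. Capitals mark matches on either strand to TGANTCA (the AP-1 motif), TATAAA (the TATA box) or GGGCGG (the SP1 motif). The windows are chr11:102780629-102780878 on the minus strand for MMP10, chr19:43670170-43670419 on the minus strand for PLAUR, and chr22:32801455-32801704 on the plus strand for TIMP3.
MMP10: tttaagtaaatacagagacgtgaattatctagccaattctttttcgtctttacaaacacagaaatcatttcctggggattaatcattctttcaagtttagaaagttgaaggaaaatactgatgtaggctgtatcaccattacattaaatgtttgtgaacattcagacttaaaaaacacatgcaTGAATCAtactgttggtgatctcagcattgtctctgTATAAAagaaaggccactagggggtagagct
PLAUR: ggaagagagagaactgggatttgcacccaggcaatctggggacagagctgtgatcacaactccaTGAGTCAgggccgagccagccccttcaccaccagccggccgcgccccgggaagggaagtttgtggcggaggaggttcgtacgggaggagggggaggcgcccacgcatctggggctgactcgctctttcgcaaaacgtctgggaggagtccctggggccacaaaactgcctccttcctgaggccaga
TIMP3: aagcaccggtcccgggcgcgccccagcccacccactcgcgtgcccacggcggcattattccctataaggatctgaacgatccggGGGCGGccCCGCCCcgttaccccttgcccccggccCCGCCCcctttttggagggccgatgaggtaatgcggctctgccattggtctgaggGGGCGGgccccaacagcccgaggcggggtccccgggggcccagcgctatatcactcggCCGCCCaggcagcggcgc
MMP10 had TGAATCA, an AP-1 match, from base 67 to base 61 before the start, and TATAAA from base 31 to base 26. PLAUR had TGAGTCA from base 186 to base 180 before the start and no TATA or SP1 match, and TIMP3 had 5 SP1 matches and no AP-1 match. The windows of the pair of PLAU starts in the table had no AP-1 match, and the window at the downstream start had 3 SP1 matches. A scan for AGGAAG, the ETS motif, not capitalised above, matched there (base 221 to base 216) and before PLAUR (base 15 to base 10). Bases farther upstream were not scanned. Of 35116 promoter entries, 6.57% held TGANTCA, 10.7% TATAAA, 42.6% GGGCGG and 28.7% AGGAAG in the same window. Among the other genes of the run on chromosome 11 with an entry, TGANTCA also occurred before MMP7 (TGAGTCA, base 67 to base 61) and MMP20 (TGAATCA, base 112 to base 106), which did not pass. These matches describe the letters only.

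The gelatinases, which cut denatured collagen and basement membrane collagen, gave smaller changes. MMP2, or gelatinase A (transcript cluster 3661684), had a level of 10.62, 10.58, 11.05, 10.78 and 10.59 on the controls and 10.61, 10.46, 10.79, 10.66 and 10.66 on the paraquat arrays. Its groups overlapped almost entirely, and the change was -0.09 (95% interval -0.33 to 0.15, limma adjusted p = 0.667). MMP9, or gelatinase B (transcript cluster 3887210), had a level of 5.06, 5.09, 5.32, 5.10 and 5.36 on the controls and 5.31, 5.38, 5.51, 5.71 and 5.41 on the paraquat arrays. Of the paraquat arrays, 4 stood above all controls and paraquat 8 did not. The change of 0.28 ± 0.10 had a 95% interval of 0.05 to 0.50 but did not pass over all rows (adjusted p = 0.0823). The change of MMP9 exceeded that of MMP2 by 0.37 (exact adjusted p = 0.0381 over 6 pairs). That call ended on leaving out any array but control 19, at differences of 0.31 to 0.44 over all 10 arrays left out in turn, and after quantile normalization (0.26, exact adjusted p = 0.0857).

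TIMP3, an inhibitor that stays bound to the extracellular matrix and also blocks several ADAM proteinases (transcript cluster 3943504), varied more between arrays than between groups. Its level was 8.42, 7.99, 8.88, 8.89 and 8.86 on the controls and 8.90, 7.97, 8.74, 9.14 and 8.97 on the paraquat arrays. Control 11 and paraquat 12 were the lowest arrays of their groups. The change was 0.14 ± 0.24 (limma adjusted p = 0.771). It was -0.017 without control 11, 0.33 without paraquat 12 and 0.18 without both, and it passed in none of these fits. A second row, assigned to both TIMP3 and SYN3, gave 0.08 ± 0.11 (adjusted p = 0.691).

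Both plasminogen activators rose. PLAT, the tissue-type activator, which neurons and neuroendocrine cells release from secretory granules (transcript cluster 3133233), had a level of 9.72, 9.96, 9.88, 9.78 and 9.60 on the controls and 11.06, 10.91, 10.92, 10.66 and 10.61 on the paraquat arrays. PLAU, urokinase (transcript cluster 3252036), had a level of 6.52, 7.24, 6.88, 6.64 and 6.80 on the controls and 7.64, 8.01, 8.04, 7.67 and 7.66 on the paraquat arrays. The groups were apart by 0.65 for PLAT and by 0.40 for PLAU, whose highest control was again control 11. The log2 change was 1.05 ± 0.11 for PLAT (adjusted p = 6.86e-05) and 0.99 ± 0.14 for PLAU (adjusted p = 0.000659). Their changes differed by -0.06 (PLAU minus PLAT, SD of the pair's difference 0.21 over controls and 0.22 over paraquat arrays, exact adjusted p = 0.714), which does not show that they are the same. A row assigned to both PLAU and C10orf55 was dim, at 2.81 and 2.86, with a change of 0.04 (adjusted p = 0.86).

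PLAUR, the membrane-anchored urokinase receptor (transcript cluster 3864551), had a level of 7.57, 8.05, 7.74, 7.80 and 8.00 on the controls and 7.97, 8.35, 7.91, 8.21 and 7.99 on the paraquat arrays. Only paraquat 12 and 18 stood above every control. The change was 0.25 ± 0.12 (95% interval -0.01 to 0.52, adjusted p = 0.18). It was smaller than the change of its ligand PLAU by 0.74 (exact adjusted p = 0.0238), a call that held with each array left out in turn, at differences between -0.80 and -0.63.

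After the mean of each group was taken away, correlations between pairs of the 9 genes over the 10 arrays ran from -0.68 to 0.76. The arrays share their cells, labelling and scaling. These correlations were not tested or set against other pairs of rows, so they do not show that the genes moved together. The highest correlations were those of PLAT with MMP3 (r = 0.76) and with MMP1 (0.64), of MMP1 with PLAU (0.62) and of MMP3 with MMP10 (0.59). MMP2 and TIMP3 had an r of 0.58. TIMP3 ran opposite to MMP10 (-0.68), PLAU (-0.62) and MMP1 (-0.62), in which control 11 or paraquat 12 were high while they were low for TIMP3. Over all 10 arrays, group difference included, the genes most like MMP1 among 14232 were the phospholipase PLA2G4C (r = 0.995), the chemokine CCL20 (0.993) and the stress gene DDIT4 (0.993). Those most like MMP3 were CDH8 (0.992), TNIP3 (0.981) and RNF144B (0.980), and those most like MMP10 were TMEM217 (0.984), SLC22A4 (0.984) and MMP13 (0.983). PLAU was most like DRAXIN (0.986), ANXA2 (0.982) and GCNA (0.980), of which annexin A2 binds plasminogen and PLAT at the cell surface. PLAT was most like RCBTB2 (0.990), SELE (0.990) and HSF2BP (0.988). Every gene named for likeness had an upward change, and these r values include that group difference. They are a description and show no functional link.

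The other matrix metalloproteinases mostly showed no call: of 17 measured, 2 rose, 2 fell and 13 did not pass, with a median log2 change of 0.07. Both counts are near the shares of all rows, 8.51% called upward and 11.5% downward. Besides MMP13, the membrane-bound MMP14, which activates proMMP2 at the cell surface, rose by 0.38, from a control range of 5.36 to 5.72 to a paraquat range of 5.74 to 6.10 (limma adjusted p = 0.0201). That call ended without control 7 (adjusted p = 0.0517) or paraquat 20 (adjusted p = 0.053). The membrane-bound MMP16 fell by 1.09, from 8.66 to 8.91 on the controls to 7.30 to 8.09 on the paraquat arrays (adjusted p = 0.000237), and a second row of MMP16 fell by 1.33. MMP11, or stromelysin 3, fell by 0.36 (adjusted p = 0.0164, and 0.0526 after quantile normalization).

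Of 5 other metalloproteinase inhibitors 1 rose and 1 fell, beside 8.51% upward and 11.5% downward of all rows. TIMP1, a secreted inhibitor of most metalloproteinases, rose by 1.03 ± 0.12 (adjusted p = 0.00015), from 10.42 to 11.04 on the controls to 11.62 to 11.96 on the paraquat arrays. RECK, a membrane-anchored inhibitor, fell by 0.34 (adjusted p = 0.0311). The RECK call ended on leaving out control 11, 13 or 17 or paraquat 12, 18 or 20, and on leaving out control 11 with paraquat 12 (-0.28, adjusted p = 0.0943). TIMP2 had a change of 0.17 (adjusted p = 0.516). Among 4 measured inhibitors of the plasminogen system, SERPINE2, or protease nexin 1, which blocks urokinase and thrombin, rose by 0.95 ± 0.20 (adjusted p = 0.00658). SERPINI1, or neuroserpin, the neuronal inhibitor of PLAT, fell by 0.95 ± 0.20 (adjusted p = 0.00622). Their arrays did not overlap between the groups, with SERPINE2 at 7.03 to 7.51 and 7.73 to 8.81, and SERPINI1 at 5.96 to 7.06 and 5.08 to 5.71. Of all rows, 7.01% had every paraquat array above every control, and the downward share was not counted.

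**Figure D4:**
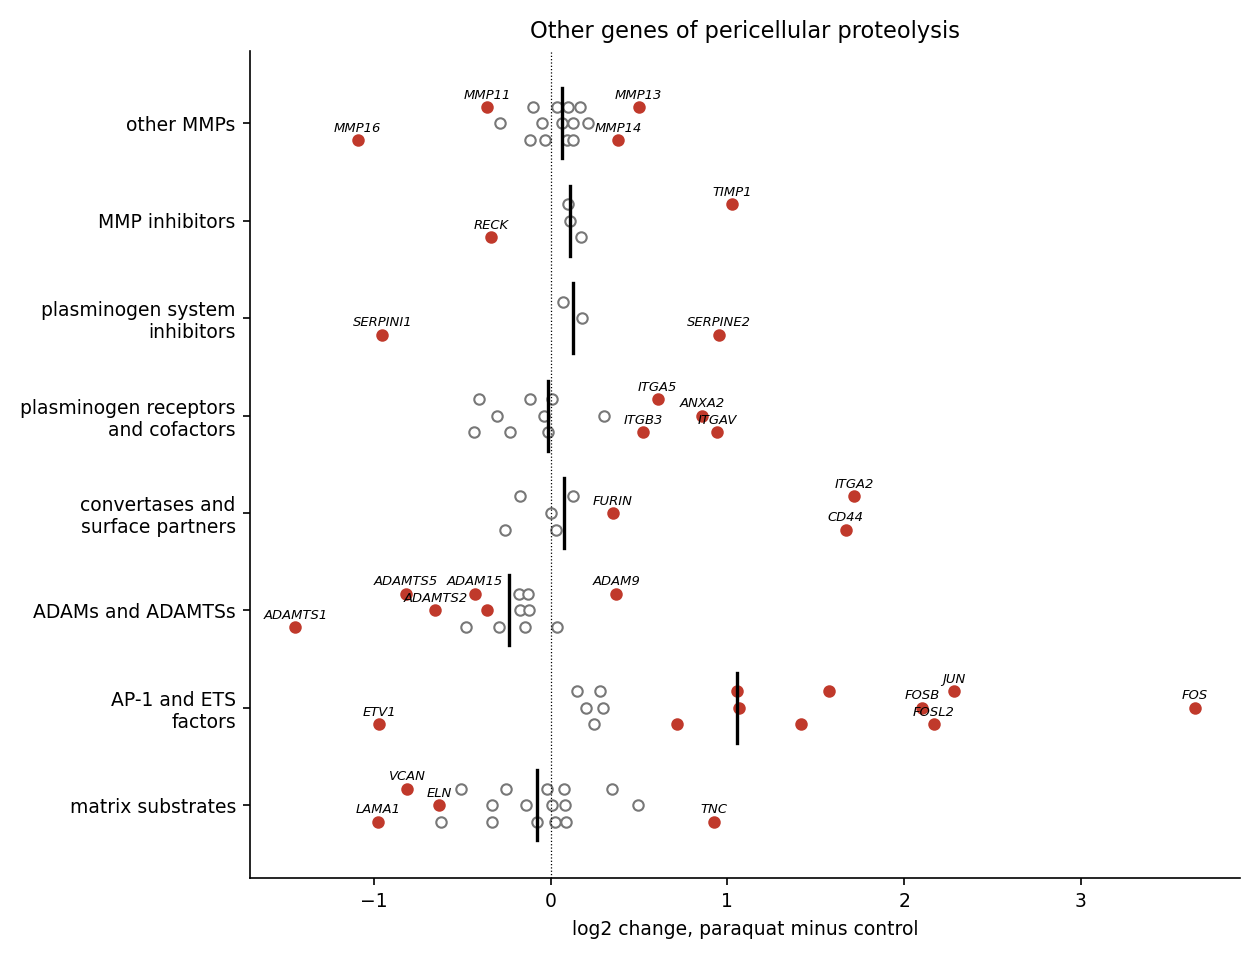
Log2 change, paraquat minus control, of each measured gene in 8 lists of related genes; filled red points passed at an adjusted p under 0.05, open points did not, and black bars give list medians. The medians of 7 lists lie between -0.23 and 0.13, and that of the AP-1 and ETS factors is 1.05. In that list every AP-1 gene passed upward, and most ETS genes did not pass.

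Among 13 measured receptors and cofactors of plasminogen and its activators, 4 rose and 0 fell, with 3 lower at an unadjusted p under 0.05 and a median of -0.01. The shares called over all rows, for this list and the next, were 8.51% upward and 11.5% downward. The integrin subunits ITGAV, ITGA5 and ITGB3 rose by 0.94, 0.61 and 0.53, and ANXA2 by 0.86 ± 0.13 (limma adjusted p = 0.000903). The ITGB3 call ended with array weights (0.34, adjusted p = 0.11), on leaving out control 7, 17 or 19 or paraquat 8, 12 or 14, and on leaving out control 11 with paraquat 12 (0.51, adjusted p = 0.0781). Without control 11 the list had 2 genes called downward, the scavenger receptor LRP1 (-0.59), which clears protease and inhibitor complexes, and the collagen receptor MRC2 (-0.49), and with array weights it had 3. ENO1, a glycolytic enzyme that also binds plasminogen, had a change of -0.12 (adjusted p = 0.342). Of 8 convertases and surface partners of the metalloproteinases, 3 rose and 0 fell, with 1 lower at an unadjusted p under 0.05. PCSK6, a convertase, was called downward without control 11 (-0.32, limma adjusted p = 0.0464) and with array weights (-0.34, adjusted p = 0.0205). ITGA2, the alpha chain of a collagen receptor, rose by 1.72 ± 0.22, from 7.53 to 8.09 on the controls to 9.08 to 10.36 on the paraquat arrays. CD44, the hyaluronan receptor, which can hold MMP9 at the cell surface, rose by 1.67 ± 0.15, from 4.61 to 5.03 to 6.15 to 7.02. FURIN, a convertase that activates membrane-bound metalloproteinases, rose by 0.35 (adjusted p = 0.0285), and its call ended without control 7, 11, 17 or 19 or paraquat 14, 18 or 20 (adjusted p up to 0.0692).

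The ADAM and ADAMTS proteinases, relatives of the metalloproteinases that shed membrane proteins or cut matrix proteoglycans, had 5 of 14 members called downward and 1 upward, beside 11.5% and 8.51% of all rows, and a median of -0.23. The count called downward was 4 to 6 with 1 array left out and 4 after median centring, where ADAMTS6 did not pass (-0.31, adjusted p = 0.0753). A second, dimmer row of ADAMTS6 fell by 0.74 on the deposited values (limma adjusted p = 0.00258). ADAMTS1 fell by 1.44 ± 0.17, from 9.42 to 10.19 on the controls to 7.92 to 8.54 on the paraquat arrays (limma adjusted p = 0.000151). ADAMTS5 fell by 0.82, ADAMTS2 by 0.65 and ADAM15 by 0.43, while ADAM9 rose by 0.37 (adjusted p = 0.0187). Of 19 matrix proteins, 1 rose and 3 fell, beside the same shares of all rows, at a median of -0.08. The glycoprotein TNC (tenascin C) rose by 0.92, and the laminin chain LAMA1, the proteoglycan VCAN (versican) and the elastic fibre protein ELN fell by 0.97, 0.81 and 0.63. The count of lowered matrix proteins was 8 with array weights, 5 without the dimmest rows, 4 without both control 11 and paraquat 12, and 3 to 6 with 1 array left out. The fibrillar collagens COL1A1 and COL3A1, substrates of MMP1, had changes of -0.51 (adjusted p = 0.0534) and -0.62 (adjusted p = 0.0666), and both passed downward without control 11 (-0.62 and -0.70). COL1A1 also passed without control 7 (-0.58) and COL3A1 without paraquat 14 (-0.73). The fibrillar collagen genes COL1A2, COL2A1 and COL5A1 had changes of -0.02, 0.03 and -0.14 (limma adjusted p = 0.91, 0.911 and 0.502). At an unadjusted p under 0.05, 3 of the 19 matrix proteins were higher and 8 lower.

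Among 15 AP-1 and ETS transcription factors, which bind promoters of metalloproteinase and PLAU genes in many cell types, 9 rose and 1 fell, at a median of 1.05. Over all rows, 8.51% were called upward and 11.5% downward. FOS rose by 3.64 ± 0.16, from 6.67 to 7.39 on the controls to 10.27 to 10.92 on the paraquat arrays. JUN rose by 2.28, FOSL2 by 2.17 and FOSB by 2.10, and none of the 4 had overlapping groups. Every paraquat array exceeded every control in 7.01% of all rows. Every AP-1 gene of the list was called upward. Among the ETS genes, ETS1 rose by 1.06 and ELK4 by 0.71, and ETV1 fell by 0.97 (limma adjusted p = 0.0146). ETS2, ETV4, ETV5, ELK1 and ELK3 did not pass on the deposited values, so the list median does not describe the ETS genes. The list was written with these results known, so its direction is no independent evidence.

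The identity of the cells was checked against marker genes. The counts of markers that rose or fell stand beside 8.51% of all rows called upward and 11.5% downward. Of 9 measured markers of sympathetic neuroblasts, 8 lay above the median of all rows and TH, tyrosine hydroxylase, below it (6.28), and 8 fell and 0 rose after paraquat (0 higher at an unadjusted p under 0.05; limma, median -0.67; 5 fell without both control 11 and paraquat 12). Of 8 leukocyte markers, 2 rose, CD68 by 1.33 and CD14 by 0.64, and 4 lay in the dimmest of 5 equal groups of rows, among them the pan-leukocyte marker PTPRC (2.67 and 2.72). The mean over the 8 was 4.02 to 4.11 on the controls and 4.29 to 4.44 on the paraquat arrays. Of 8 fibroblast markers, 6 lay above the median of all rows, among them COL3A1 (10.03). Of the 8, 0 rose and 2 fell, THY1 by 1.16 and LUM by 1.53 (0 higher and 5 lower at an unadjusted p under 0.05), with means of 7.41 to 7.62 and 6.82 to 6.94. The count of fallen fibroblast markers was 5 with array weights or without the dimmest rows and 2 to 4 with 1 array left out. Of 7 endothelial markers none was called, and 0 had an unadjusted p under 0.05 in either direction. The part of these shifts in the changes of the 9 genes was not tested. In bulk RNA a change in the share of cells of 1 kind and a change in RNA per cell cannot be told apart.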

How the data were processed

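Total RNA of SH-SY5Y cells was depleted of ribosomal RNA and hybridised to Affymetrix GeneChip Exon 1.0 ST arrays, per the labels' protocols. The deposited table holds log2 expression values, which the authors made with RMA, per the submitters' processing notes. The log2 scale was read from the values (1.07 to 14.37). RMA pulls dim values together, which can shrink fold changes. Which software and genome build they used is not stated, and detection calls were not used.

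Gene names came from the platform annotation. Of 14432 rows with 1 symbol, 14404 matched a RefSeq gene (GRCh38.p14). Paraquat was compared with control in limma 3.58.1 (R 4.3.3) with no further scaling or filter, and p-values were adjusted (Benjamini-Hochberg) over 22011 rows. Errors of changes are moderated standard errors. The number of arrays limits the precision, with a median standard error of 0.13. Changes of 6 pairs of genes were compared by exact permutation over the 252 splits of the arrays (scipy 1.17.1). The fit was also run on simulated rows with independent normal noise and known changes. Effects shared by an array and a background floor were not simulated, so that run does not test them. The text names all 9 genes and, per context list, up to 4 called genes with the largest changes and any that moved against the rest. The marker genes, TIMP2, ENO1, LRP1, MRC2, PCSK6, ADAMTS6 and the fibrillar collagen genes were added after their values were seen. So were the ETS genes other than ETV1 and the other genes of the chromosome 11 run. For each of the 5 genes that rose, the 3 genes with the highest correlation are named. Members and lists were chosen with earlier results of these data known. Alternatives were other scalings, a filter on dim rows, array weights, a variance trend, and arrays left out.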

Additional observations from a re-analysis of the deposited data

How the results depend on the processing

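The directions of MMP1, MMP3, MMP10, PLAU and PLAT and their calls were kept under every alternative that tested them: median centring, quantile normalization, array weights, a variance trend with a robust prior, each array left out in turn, and control 11 and paraquat 12 left out together. The log2 changes then ranged from 3.38 to 3.70, 1.84 to 2.22, 1.37 to 1.65, 0.92 to 1.10 and 0.98 to 1.10. Without the dimmest 33.3% of rows the number of members raised was 3, because MMP3, MMP10 and MMP9 were not tested. TIMP3 ranged from -0.017 to 0.33 with 1 array left out. With 1 array left out the smallest exact p is 0.0159, and with 8 arrays 0.0286, so that calls on pairs can end by the number of arrays alone. The differences then ranged from 1.33 to 1.66 (MMP1 minus MMP3), 0.29 to 0.60 (MMP3 minus MMP10), 0.31 to 0.44 (MMP9 minus MMP2) and -0.11 to 0.042 (PLAU minus PLAT). MMP9 minus MMP2 was 0.26 after quantile normalization and 0.36 without control 11 and paraquat 12 (exact adjusted p = 0.137), and the cause was not tested. No paired analysis was made, since the groups share no replicate number. Each control number has a paraquat number next to it (7 and 8, 11 and 12, and so on), but no label says that neighbours are pairs, so whether the arrays were paired is not known. Averaging several rows of a gene gave no value, since each of the 9 genes had 1 row assigned to it alone. Of 219 recomputed values with a test, 194 kept direction and side of the threshold. Of 64 recomputed counts, 63 stayed within 1.5 times the count reported, a tolerance under which the number of all rows called still ran from 1480 to 2608 upward and from 1916 to 3588 downward, both highest with array weights. Signal near background limits MMP3, MMP10 and the control level of MMP1, and the low level of MMP9 may limit its change.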

Other observations

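Some proteinase genes are covered by rows that the annotation assigns to several genes, which were tested but stood for no gene. A row assigned to ADAM17, the main sheddase of tumour necrosis factor and of ligands of the EGF receptor, and to IAH1 rose by 0.86 ± 0.14 (limma adjusted p = 0.00112). Its level was 8.85 to 9.31 on the controls and 9.73 to 10.36 on the paraquat arrays, with no overlap. Of all rows, 7.01% were apart upward in this way. A row assigned to ADAM10, a related sheddase, and HSP90AB4P had a change of -0.27 (adjusted p = 0.204). A row assigned to MMP19 and TMEM198B fell by 0.79 ± 0.12 (adjusted p = 0.000989), while the row of MMP19 alone had a change of 0.16 (adjusted p = 0.292). The row for plasminogen and its near-identical relatives PLGLA, PLGLB1 and PLGLB2 was dim, at means of 3.40 and 3.49, with a change of 0.08 (adjusted p = 0.719), and the rows shared with LPA and LPAL2 did not pass either. These rows were chosen after their values were seen.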
